A study of Homo sapiens with 6 samples.

Results

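In a human colon cancer cell line with switchable p53, 34 genes rose while p53 was active and still held at least 50% of that rise 6 h after it was switched off again. They are the retained genes described here, out of 14018 genes with a usable signal. Retained genes were chosen from the measured values themselves. Within each of 2 experiments, p53 on minus p53 off had to be at least 0.8 log2 units, and the difference left after recovery had to be at least 50% of it. Both differences subtract the same control array of an experiment, so a control array that happened to read low favours selection of a gene. Another 7 genes also met these thresholds and were left out by the rule (CRYAB, PLTP, ABCA12, APOBEC3C, SERPINB7, TP53I3 and KRT19), and they kept between 52.6% (ABCA12) and 124% (SERPINB7) of their rise. In total 325 genes met the threshold on the rise, which is 2.32% of the genes measured. The 41 that met both thresholds are 12.6% of those 325 and 0.292% of all genes measured. Throughout, a rise means the p53 on minus p53 off difference on which the genes were chosen. Shares of it kept are on the log2 scale unless the linear scale is named.

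The cells were HT29-tsp53, the colorectal adenocarcinoma line HT-29 carrying a mouse p53 transgene (murine V135A p53) whose protein works at 32 °C but not at the higher, restrictive temperature. All 3 groups carry this transgene. Each group has 2 arrays of total RNA, 1 from experiment 1 and 1 from experiment 2. The p53 off group stayed at the restrictive temperature (0 h), the p53 on group spent 16 h at 32 °C, and the p53 on then off group spent 16 h at 32 °C and then 6 h of recovery. The labels disagree on the restrictive temperature, given as 38 °C or as 37 °C, and 1 field of the recovery samples names 32 °C for the recovery. No group at 32 °C lacks the transgene among these samples, so active p53 and the lower temperature cannot be told apart. The line is a single cell line, and whether the transgenic line is 1 clone is not given in the sources used here.

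p53 is a transcription factor that binds DNA as a tetramer and switches on genes of cell cycle arrest, cell death, DNA repair and its own feedback. How fast a p53-induced transcript disappears once p53 stops working depends on how long the transcript itself lasts, as well as on any transcription that goes on without p53. The level measured on an array reflects both, and no measure of transcript half-life was used here.

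For orientation, the arrest gene CDKN1A had log2 signals of 4.83 and 4.99 in p53 off, 8.32 and 7.91 in p53 on, and 4.92 and 4.78 on recovery. It kept -2.27% of its rise, and MDM2, the ubiquitin ligase that degrades p53, kept 2.5%. Of 11 markers of colorectal epithelium, 10 were above the lowest 25% of signals, with a mean log2 signal of 7.79 to 8.25 over the 6 arrays. Their mean was lower in experiment 2 in each group. Of 8 fibroblast markers, 5 were above the lowest 25%, the brightest being COL1A1 at 5.26 to 5.89, while DCN, LUM and FAP were not. The mean over all 8 was 3.51 to 3.74. Of 7 leukocyte markers measured, 5 were above the lowest 25%, and the mean over all 7 was 5.08 to 5.38. PTPRC, at 1.39 to 2.05, and CD3E were not above the lowest 25%, and LYZ, at 10.81 to 11.52, was the brightest. The samples are a single cell line, and the source of these marker signals was not tested.

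The stretches upstream of the annotated starts of LAPTM5, LCN15 and AHNAK2 are shown because these are the 3 retained genes with the largest rises that have an entry in the RefSeq promoter table (GRCh38.p14). Each is the 250 bases before the start, written 5′ to 3′ on the gene's strand. LAPTM5 lies at chr1:30757775-30758024, LCN15 at chr9:136764519-136764768 and AHNAK2 at chr14:104978375-104978624, all on the minus strand. Capitals mark matches on either strand to TATAAA, the core of the box bound by TBP. They also mark GGGCGG, the core of sites bound by SP1, and, where NF-Y can bind, the letters CCAAT. None of the 3 stretches held the p53 decamer, the 10-letter consensus bound by a p53 dimer.
LAPTM5: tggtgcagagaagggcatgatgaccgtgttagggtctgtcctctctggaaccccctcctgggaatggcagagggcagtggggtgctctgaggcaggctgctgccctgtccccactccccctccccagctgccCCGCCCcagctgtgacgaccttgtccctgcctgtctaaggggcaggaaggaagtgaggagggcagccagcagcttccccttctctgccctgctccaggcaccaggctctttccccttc
LCN15: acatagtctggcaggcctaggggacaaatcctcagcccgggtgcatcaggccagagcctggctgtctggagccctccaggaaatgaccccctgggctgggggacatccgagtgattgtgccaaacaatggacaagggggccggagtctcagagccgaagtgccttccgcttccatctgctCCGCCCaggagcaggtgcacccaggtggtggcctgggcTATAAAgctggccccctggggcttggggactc
AHNAK2: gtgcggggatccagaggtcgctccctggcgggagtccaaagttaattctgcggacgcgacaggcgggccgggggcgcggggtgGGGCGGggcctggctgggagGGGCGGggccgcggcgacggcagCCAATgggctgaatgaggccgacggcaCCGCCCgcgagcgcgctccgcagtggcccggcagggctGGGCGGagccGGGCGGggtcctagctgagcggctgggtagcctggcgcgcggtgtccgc

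Promoters with 250 bases before the start and 50 after it were found for 26 of the 34 retained genes. The p53 decamer was present in 3 of these 26 (11.5%), in 22 of 222 other induced genes (9.91%), in 5.32% of the 11080 promoters of all genes measured and in 6.54% of all 27305 promoters of the table. A pair of decamers separated by 0 to 13 bases was present in 0 of the 26, in 0 of the 222, in 2 promoters of the genes measured and in 8 of all promoters. TATAAA on either strand was present in 5 of 26 retained promoters (19.2%), in 8.11% of the other induced ones, in 6.62% of those measured and in 12% of all. GGGCGG was present in 57.7%, 65.8%, 68.3% and 44.6% of these sets in the same order, so the retained genes lay below the genes measured and above the whole table. CCAAT was present in 46.2%, 35.6%, 35.9% and 35.7%. These are letter counts in a short window and carry no test. The 3 decamers are shown in capitals within 30 bases, since they are the only matches among the retained genes. They start at base -55 of COL17A1 (chr10:104085916-104085945, minus strand), base 25 of DHRS9 (chr2:169067091-169067120, plus strand) and base -89 of STEAP4 (chr7:88306964-88306993, minus strand), counted from the gene start.
COL17A1: acctttgtcaGGACATGTTTggaagcaaag
DHRS9: tcgttcagagAAACATGTTCcactgagaat
STEAP4: ctcttccaggAAACAAGTTCttttccgctt

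Retained genes had a mean rise of 0.82 to 3.16 log2 units (median 1.15), and after recovery they stood 0.66 to 2.57 log2 units above p53 off (median 0.88). Their share of the rise kept, averaged over the experiments, ran from 54.6% to 105% with a median of 75.3%. For the 284 other induced genes the median was 14.8%, and 130 of them kept under 25% in both experiments. Another 65 of those 284 genes kept 50% or more in 1 experiment only, so the requirement on both experiments sets much of the membership. These values chose the genes and are given as a description. In p53 on, both arrays lay above both p53 off arrays for 34 of 34 retained genes, as for 22.6% of all genes, and after recovery for 31 of 34, as for 20.4% of all genes. The exceptions after recovery were AKR1C3, DHRS9 and RBM3.

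**Figure D1:**
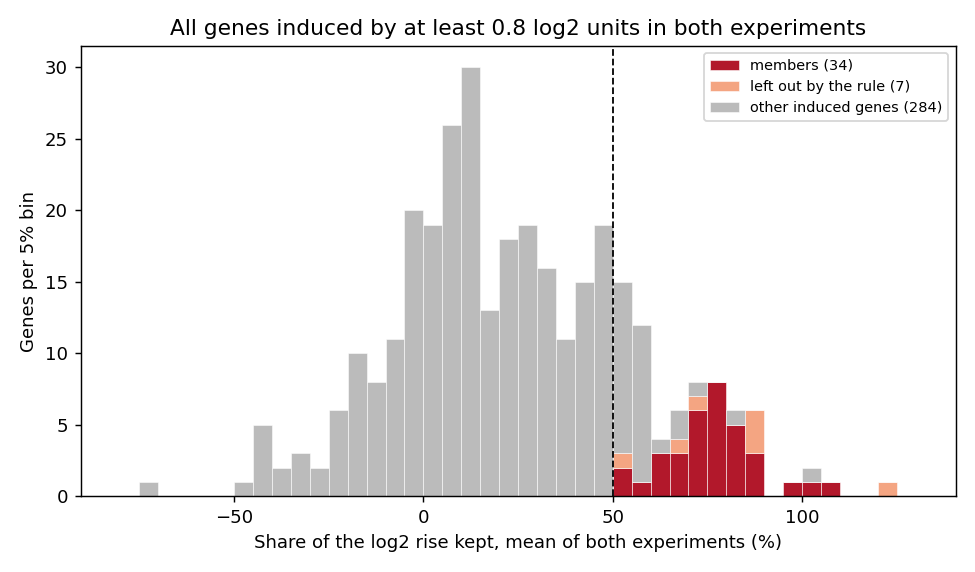
Number of genes (vertical axis) by the share of their log2 rise kept after recovery, as the mean of both experiments in percent (horizontal axis), for all 325 induced genes in stacked 5% bins. Retained genes (red), the 7 genes left out by the rule (orange) and the 284 other induced genes (grey) are told apart by colour, and the dashed line marks 50%. Grey genes to the right of the line kept 50% in 1 experiment but not in the other.

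The 3 largest rises belonged to a lysosomal protein and a pair of small secreted proteins. LAPTM5, a transmembrane protein of lysosomes best known from blood cells, had log2 signals of 3.95 and 3.40 in p53 off, 6.89 and 6.78 in p53 on, and 6.01 and 6.47 on recovery. Its mean rise was 8.95-fold, and its share kept was 70.3% and 90.7% in the 2 experiments. SCGB1A1, a secretoglobin released by airway club cells, read 4.75 and 4.82 in p53 off, 7.61 and 7.58 in p53 on, and 6.92 and 7.15 on recovery. That is a 7.04-fold rise with 80.2% of the log2 difference kept on average, and the arrays of each group lay close together. LCN15, a secreted member of the lipocalin family, had 3.45 and 3.64 in p53 off, 6.26 and 5.96 in p53 on, and 5.43 and 5.49 on recovery (5.92-fold, 75.1% kept). For each of these genes the 3 groups did not overlap, with the recovery arrays between the p53 on and the p53 off arrays. The mean p53 off signal of LCN15 lay under log2 3.62, the cut used to leave out dim genes. LCN15 passed that cut on its mean over all arrays. How far its fold change depends on so dim a control was not tested. ERAS and PLA2G4E, described below, also lay under the cut in p53 off.

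LCN2, the lipocalin that withholds iron from bacteria, had 7.53 and 7.41 in p53 off, 9.08 and 9.28 in p53 on, and 8.53 and 8.98 on recovery. LCN2 rose 3.27-fold and kept 64.4% and 83.8% of the log2 rise. WFDC2, a secreted protein of the whey acidic protein family, had 4.74 and 4.12 in p53 off, 6.26 and 5.96 in p53 on, and 5.58 and 5.74 on recovery. Its share kept was 55.6% in experiment 1 and 88% in experiment 2. GRN, which encodes progranulin, a secreted protein that is also needed in lysosomes, had 9.39 and 9.48 in p53 off, 10.56 and 10.47 in p53 on, and 10.25 and 10.38 on recovery (2.12-fold, 81.9% kept). MAN2B1, a lysosomal mannosidase, had 5.07 and 5.19 in p53 off, 6.24 and 6.17 in p53 on, and 6.03 and 5.73 on recovery. MAN2B1 differed from WFDC2 in that it kept more in experiment 1 (82.6%) than in experiment 2 (54.9%).

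**Figure D2:**
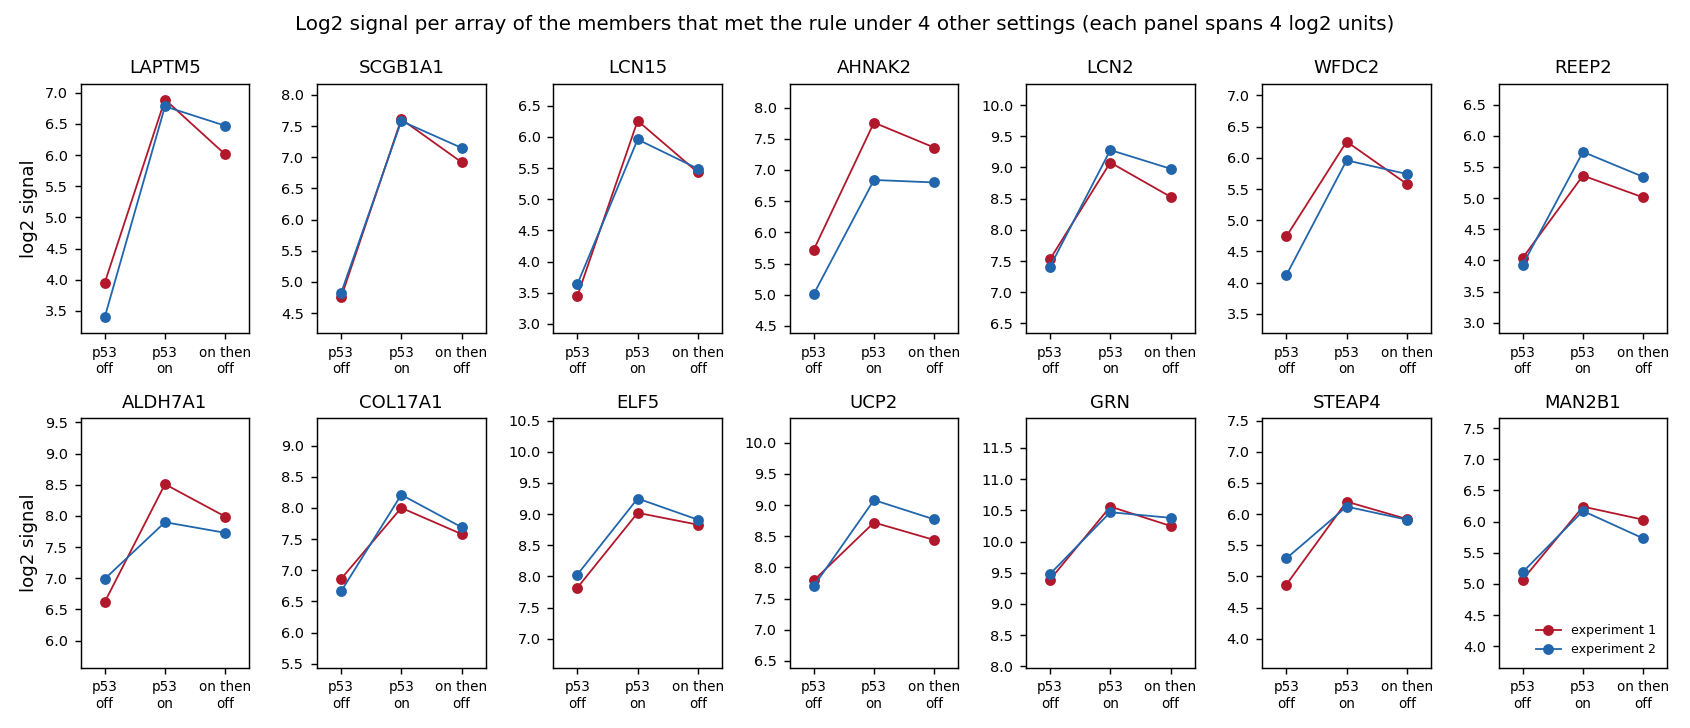
Log2 signal per array (vertical axis, 4 log2 units in every panel) in p53 off, p53 on and p53 on then off, with experiment 1 in red and experiment 2 in blue, for the 14 retained genes that met the rule under each of 4 other settings. The lines climb to p53 on and stay well above p53 off after recovery in both experiments, as the rule requires, and AHNAK2 runs lower in experiment 2 throughout.

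AHNAK2, a very large scaffold protein, had 5.72 and 5.01 in p53 off, 7.76 and 6.84 in p53 on, and 7.36 and 6.80 on recovery. It rose 3.83-fold and kept 80.3% and 98.1% of the log2 rise. COL17A1, the transmembrane collagen of hemidesmosomes, had 6.86 and 6.66 in p53 off, 8.0 and 8.21 in p53 on, and 7.58 and 7.69 on recovery, with 62.8% and 66.3% kept over 55 probe sets. ELF5, an ETS-family transcription factor of glandular epithelia, had 7.82 and 8.03 in p53 off, 9.02 and 9.25 in p53 on, and 8.83 and 8.91 on recovery (77.9% kept). KRT17, a keratin of stressed and basal epithelium, had 6.32 and 6.24 in p53 off, 7.38 and 7.28 in p53 on, and 6.94 and 7.25 on recovery. Its share kept differed widely between experiments, at 58.8% and 96.7%. KRT19P2, a pseudogene of KRT19, rose 2.2-fold and kept 67.7%. It rests on 1 probe set, and whether that probe set also reads KRT19 transcript was not tested.

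On the list of keratin and squamous differentiation genes, 34 were measured, 6 met the threshold on the rise, and 2 of these were retained (KRT17 and LCN2) while KRT19 was left out by the rule. In limma, 2 genes of that list rose and 0 fell in p53 on, or 9 and 1 with the experiments as a replicate block. After recovery 0 were called in either direction, or 2 higher with the block. The list's median difference was 0.42 in p53 on and 0.16 after recovery, where the medians of all genes were 0.02 and 0.03. Of 30 measured genes of lysosome and autophagy, 3 met the threshold on the rise and MAN2B1 was the only retained one. In limma 1 gene of that list rose and 0 fell in p53 on, or 5 and 1 with the block. The list's median difference in p53 on was 0.04. Of 21 measured serpins and protease inhibitors, 4 met the threshold on the rise and WFDC2 was retained, with 3 genes of the list called higher in p53 on by limma and 0 lower (6 and 0 with the block). Of 42 measured genes of adhesion, matrix and cytoskeleton, 5 met it and COL17A1 was retained, with 2 called higher and 1 lower (9 and 4 with the block).

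ALDH7A1, an aldehyde dehydrogenase of lysine breakdown, had 6.62 and 6.99 in p53 off, 8.51 and 7.90 in p53 on, and 7.99 and 7.73 on recovery (2.64-fold, 77% kept). UCP2, a carrier of the inner mitochondrial membrane, had 7.79 and 7.70 in p53 off, 8.72 and 9.08 in p53 on, and 8.44 and 8.77 on recovery (74% kept). STEAP4, a metalloreductase, had 4.87 and 5.29 in p53 off, 6.20 and 6.12 in p53 on, and 5.92 and 5.91 on recovery (77% kept). In all 3 genes the recovery arrays stood above both control arrays, and the share kept differed by less than 10 percentage points between the experiments.

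AKR1C3, an aldo-keto reductase of steroids and prostaglandins, had 8.71 and 9.83 in p53 off, 9.98 and 10.72 in p53 on, and 9.72 and 10.68 on recovery. Here the control array of experiment 2 read higher than the recovery array of experiment 1, so the groups overlap although each experiment kept at least 79.3%. AKR1C3 has close relatives, and whether its signal includes theirs was not tested. Its relative AKR1C1, with a gene value of its own, rose by 1.14 log2 units and kept 11% and 48%. DHRS9, a short-chain dehydrogenase that acts on retinol, had 4.59 and 3.97 in p53 off, 6.08 and 4.97 in p53 on, and 5.50 and 4.53 on recovery, with a similar overlap. SLC37A2, a sugar-phosphate carrier, rose 2.1-fold and kept 85.6% and 59.1% of the log2 rise. SLC16A4, of the monocarboxylate transporter family, stood at 4.44 and 3.89 in p53 off, 5.34 and 4.78 in p53 on, and 5.22 and 4.93 on recovery. It kept 102% on average, with 87.3% in experiment 1 and 117% in experiment 2. PLA2G4E, a cytosolic phospholipase A2 family member, read 3.24 and 3.50 in p53 off, 4.05 and 4.33 in p53 on, and 3.93 and 4.13 on recovery. Its rise of 0.82 log2 units was the smallest of the 34, with 80.4% kept. TMC4, a channel-like membrane protein, read 5.61 and 5.87 in p53 off, 6.51 and 7.03 in p53 on, and 6.41 and 6.85 on recovery (86.6% kept).

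REEP2, which shapes the endoplasmic reticulum, had 4.04 and 3.93 in p53 off, 5.36 and 5.74 in p53 on, and 5.01 and 5.34 on recovery, with 73.8% and 78% kept. SCAMP5, a secretory carrier membrane protein, had 4.24 and 3.63 in p53 off, 5.22 and 5.79 in p53 on, and 4.78 and 4.78 on recovery. Its share kept of 54.6% was the smallest of the 34. TSNARE1, a protein with a SNARE domain, read 4.75 and 4.60 in p53 off, 5.92 and 5.72 in p53 on, and 5.70 and 5.57 on recovery (84.3% kept). SYT8, a synaptotagmin, read 4.90 and 4.41 in p53 off, 5.90 and 5.54 in p53 on, and 5.49 and 5.19 on recovery (64% kept). In all 4 genes both recovery arrays stood above both p53 off arrays.

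RIPK3, the kinase of necroptosis, had 4.89 and 4.68 in p53 off, 5.77 and 5.74 in p53 on, and 5.65 and 5.78 on recovery. RIPK3 kept 86% in experiment 1 and 105% in experiment 2, so its p53 on and recovery arrays overlap. PTPRU, a receptor tyrosine phosphatase, had 3.51 and 4.11 in p53 off, 5.83 and 5.21 in p53 on, and 4.70 and 4.75 on recovery, keeping 51.3% and 58.3%. TNNC1, the troponin C of heart and slow muscle, had 4.08 and 4.31 in p53 off, 5.66 and 5.56 in p53 on, and 5.93 and 5.47 on recovery. Its average share kept of 105% was the highest of the 34, with 117% in experiment 1 and 93.3% in experiment 2. HLA-DOA, a chain of the class II antigen-loading regulator HLA-DO, read 3.91 and 4.52 in p53 off, 5.59 and 5.47 in p53 on, and 5.11 and 5.21 on recovery (71.6% kept). ERAS, a Ras-like GTPase of embryonic stem cells, read 3.36 and 3.14 in p53 off, 4.43 and 4.64 in p53 on, and 4.0 and 4.06 on recovery (61% kept). Both were kept about equally in the experiments, HLA-DOA at 71% and 72.2% and ERAS at 60.5% and 61.6%. ASB13, an adaptor of ubiquitin ligases, read 5.66 and 6.02 in p53 off, 6.84 and 7.10 in p53 on, and 6.51 and 6.86 on recovery (75.3% kept). METTL8, an RNA methyltransferase, read 4.97 and 4.49 in p53 off, 5.85 and 5.51 in p53 on, and 5.49 and 5.42 on recovery, keeping 59.7% and 91%. CITED4, a coactivator partner of CBP and p300, rose 2.14-fold and kept 70.3% of the log2 rise.

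**Figure D3:**
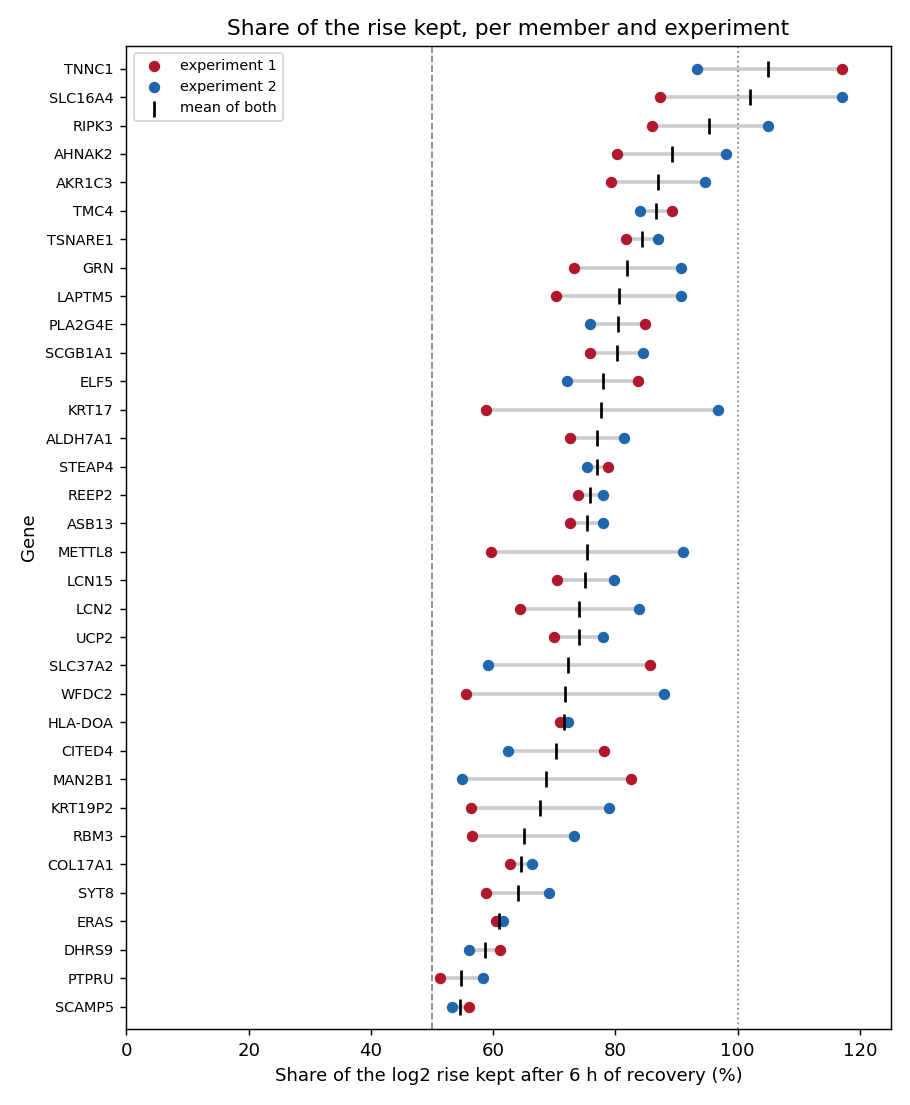
Share of the log2 rise still present after 6 h of recovery (horizontal axis, percent) for each of the 34 retained genes (vertical axis), with experiment 1 in red, experiment 2 in blue and the mean as a black tick. The dashed line at 50% is the threshold of the rule and the dotted line is the full rise. TNNC1 and SLC16A4 average above the full rise, and KRT17, WFDC2 and METTL8 have the widest gaps between experiments.

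RBM3, an RNA-binding protein induced by mild cold, is a retained gene whose induction has a known temperature trigger. Its log2 signals were 6.81 and 5.98 in p53 off, 7.91 and 6.99 in p53 on, and 7.43 and 6.72 on recovery. RBM3 rose 2.08-fold and kept 56.6% and 73.3% of the log2 rise. CIRBP, the other cold-inducible gene on the list, had 7.59 and 7.45 in p53 off, 8.86 and 8.37 in p53 on, and 7.69 and 7.72 on recovery. CIRBP kept 7.67% and 28.7% and is not a retained gene. Neither was called in p53 on by limma without the block, and both were called with it. The part of the temperature shift in the other retained genes was not tested.

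Of 110 listed targets measured, 50 met the threshold on the rise, and these kept a median of 9.61% of it. Among the 50, 48 are other induced genes (16.9% of those 284), TP53I3 was left out by the rule, and LAPTM5 is the 1 retained gene (2.94% of the 34). Listed targets were 0.785% of all genes measured, and the share among the retained genes rests on that 1 gene. LAPTM5 was on the list of p53 targets in apoptosis and autophagy, and not on the list of lysosome and autophagy. It is not among the classical p53 targets. The lists hold well-studied genes and were chosen with earlier results of these data known. These counts carry no test.

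On the scale of the signal itself, the share kept is smaller by arithmetic wherever a gene kept part of its rise but not all of it. The direction of the change is therefore no result about these genes. The median over the 34 genes was 65.4% on the linear scale, against 75.3% on the log2 scale. At least 50% was kept in both experiments by 23 of the 34 on the linear scale. LAPTM5 kept 47.8% and 78.4% on that scale, LCN15 49% and 65.1%, and WFDC2 42.7% and 80.4%, so each fell short in experiment 1. SCGB1A1 kept 56% and 69.8%, AHNAK2 67.8% and 96.7%, and GRN 64.8% and 87.5%. PTPRU and SCAMP5 averaged 40.6% and 41.3%, the lowest of the 34.

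**Figure D4:**
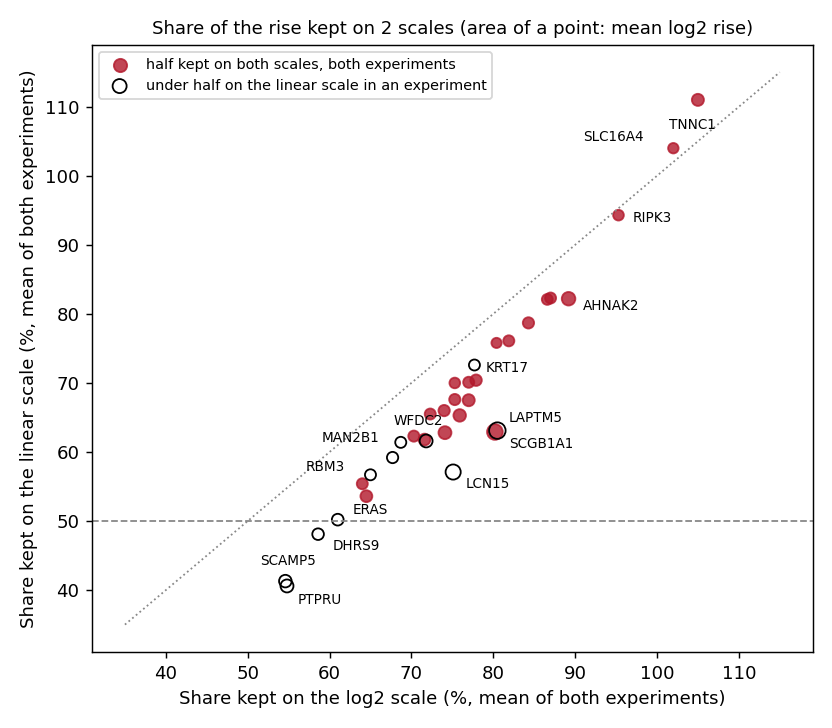
Share of the rise kept on the log2 scale (horizontal axis, percent) against the same share on the linear signal scale (vertical axis, percent), each the mean of both experiments, for the 34 retained genes. Red points are the 23 genes with at least 50% kept in both experiments on the linear scale and open points the remainder, with point area growing with the mean log2 rise. Most points lie under the dotted line of equal shares, and LAPTM5, SCGB1A1 and LCN15, with the largest rises, lie farther under it than most.

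Probe sets within a retained gene did not all move alike. The array measures a gene with several exon-level probe sets, here 450 for the 34 genes, and the gene value is their median. Taken one at a time, 222 of the 450 (49.3%) rose by at least 0.8 in both experiments, and 127 (28.2%) also kept 50% or more in both. For the 3700 probe sets of the other induced genes these shares were 58.3% and 4.35%, so probe sets that did not rise were common there too. The second share follows from how the genes were chosen. In GRN 11 of 16 probe sets met both thresholds, in LAPTM5 8 of 11, in UCP2 8 of 13, in ELF5 6 of 8, in LCN2 6 of 7 and in SCGB1A1 4 of 5. In COL17A1 40 of 55 rose and 18 also kept the rise. By contrast, only 1 of 9 probe sets rose in TNNC1 and in ASB13 and 0 of 9 in SLC16A4, and no probe set met both thresholds in SCAMP5, HLA-DOA, ERAS, CITED4 and SLC16A4. The gene values of these 7 rest on the middle of probe sets that disagree, and such disagreement was not confined to them. Both thresholds were met by 1 of 22 probe sets in DHRS9, 1 of 15 in TSNARE1, 1 of 14 in SYT8 and 3 of 31 in PTPRU. At least 50% of the probe sets met both in 11 of the 34 genes.

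With the mean of a gene's probe sets in place of the median, 32 genes met the rule, of which 16 were among the 34. In that setting, 38 of the 68 mean differences of the 34 genes from p53 off moved by more than the spread between replicates. The linear fold change from p53 off to p53 on moved by a factor of over 1.5 in 5 retained genes. The mean p53 on minus p53 off difference was then 0.38 log2 units in TSNARE1 against 1.15 with the median, 0.58 against 1.41 in TNNC1, and 0.50 against 1.13 in ASB13. In AHNAK2 it was 1.33 against 1.94 and in LCN15 1.88 against 2.56. After recovery TSNARE1 stood 0.19 above p53 off by the mean and 0.97 by the median. With the control array of the other experiment in both differences, 32 genes met it, 23 of them among the 34. With the mean of both control arrays it was 35 genes, 24 of them among the 34. Under these settings and quantile normalization alike, 14 retained genes met the rule each time, namely LAPTM5, SCGB1A1, LCN15, AHNAK2, LCN2, WFDC2, REEP2, ALDH7A1, COL17A1, ELF5, UCP2, GRN, STEAP4 and MAN2B1. On the linear scale as well, 10 of them did, the exceptions being LAPTM5, LCN15, WFDC2 and MAN2B1. The share of induced genes that met both thresholds, 12.6%, stood beside 20.5% for the mirror image, the 337 genes lower by at least 0.8 log2 units in p53 on in both experiments that kept at least 50% of the fall. Both shares rest on the same shared control arrays.

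At the threshold on the rise, the retained genes nearest to it were PLA2G4E, STEAP4 and METTL8, whose smaller rises were 0.812, 0.824 and 0.877 log2 units. Just outside lay PLAC8, TOMM20 and BCKDHA at 0.788, 0.785 and 0.78. At the threshold on the share kept, PTPRU, SCAMP5 and MAN2B1 lay nearest inside with smaller shares of 51.3%, 53.2% and 54.9%. CD82, AKR1B10 and MAFF lay nearest outside with 49.8%, 49.3% and 48.5%.

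The rule used all 3 differences between the groups, since keeping at least 50% of a rise also limits the fall after p53 on, so calls on them are given as a description only. In limma fitted on all 14018 genes, 13 of the 34 were called higher in p53 on than in p53 off (background 0.899% of genes), or 34 of 34 with the experiments as a replicate block (background 5.18%). With any 1 array left out, 0 to 3 were called (0 without either p53 off array). SCGB1A1 was the only one called higher after recovery than in p53 off (background 0.0285%), and it was not called with any 1 array left out. With the block 9 were called (background 0.207%), namely LAPTM5, SCGB1A1, LCN15, AHNAK2, LCN2, WFDC2, REEP2, TNNC1 and TSNARE1. From p53 on to recovery, limma called 0 of the 34 lower with or without the block (background 0.285% and 3.39%). At an unadjusted limma p under 0.05, 5 and 8 of the 34 were lower, beside 786 and 1451 of all 14018 genes. Of the 284 other induced genes, which lie on the other side of the same threshold, 39 were called lower, or 221 with the block. None of the 34 was called in the opposite direction, where the backgrounds were 0.585% for p53 on below p53 off (6.28% with the block), 0% for recovery below p53 off (0.392%) and 0.143% for recovery above p53 on (3.85%). For 31 of the 34, recovery lay below p53 on in both experiments, as for 278 of the 284 other induced genes. The median difference was -0.33 log2 units over all 34 and -1.06 over the other induced genes. Both recovery arrays lay below both p53 on arrays for 21 of the 34 and 273 of the 284 (background 18.3%).

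The level difference between the experiments, averaged over the 3 groups, was not used by the rule and was tested. In limma, AKR1C3 was higher in experiment 2 than in experiment 1 by 0.94 ± 0.15 log2 units (SE, adjusted p = 0.00514). DHRS9 (-0.90 ± 0.15, adjusted p = 0.00741), RBM3 (-0.82 ± 0.14, adjusted p = 0.00724), KRT19P2 (-0.80 ± 0.14, adjusted p = 0.0092) and AHNAK2 (-0.73 ± 0.15, adjusted p = 0.0136) were lower in experiment 2, all by limma over 3 arrays per experiment. Each of the 5 had the same direction in every group. The count of 1 higher and 4 lower among 34 stands beside a background of 2.72% higher and 9.94% lower. Adjusted p for the other 29 genes lay at or above 0.0664 (SLC16A4). The median size of the difference was 0.17 log2 units over the 34 and 0.21 over all genes. Of these 5 genes, AKR1C3, DHRS9, RBM3 and KRT19P2 no longer met the rule with the control array of the other experiment, and AHNAK2 still did. That swap shifts each rise by the difference between the 2 control arrays. The losses therefore follow largely from the level differences and are no separate result. The share kept was larger in experiment 2 than in experiment 1 for 24 of the 34, with medians of 78.5% and 72.6%, and for 161 of the 284 other induced genes.

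**Figure D5:**
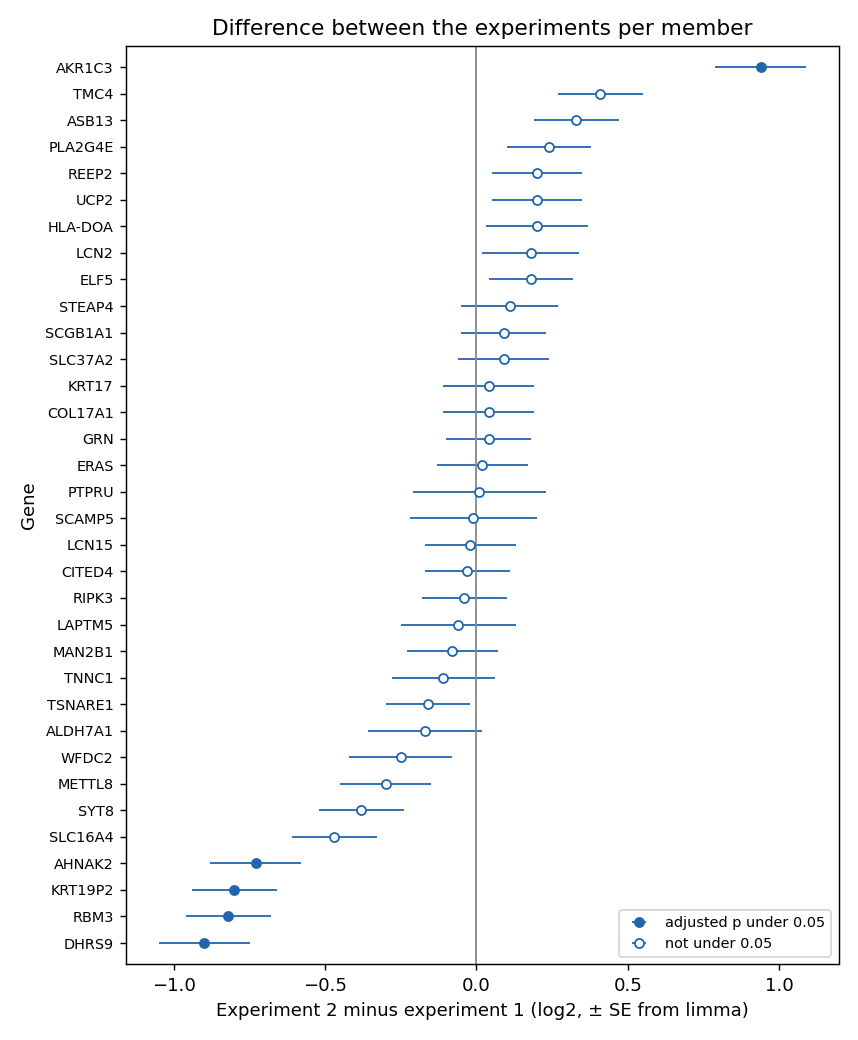
Difference in log2 signal between experiment 2 and experiment 1 (horizontal axis, averaged over the 3 groups, ± SE from limma) for each of the 34 retained genes (vertical axis). Filled points passed an adjusted p of 0.05. AKR1C3 stands apart on the right at 0.94, and DHRS9, RBM3, KRT19P2 and AHNAK2 on the left between -0.90 and -0.73.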

How the data were processed

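The 6 arrays (Affymetrix Human Gene 1.0 ST) measured total RNA of HT29-tsp53 cells. The authors deposited 1 log2 signal for each exon-level probe set and array, a scale read off the values themselves (-0.85 to 13.14). Which program, background step and normalization made them is not given in the sources used here. Array medians lay between 5.24 and 5.31, and no further scaling was done. Precision is limited by the number of arrays. Each gene took the median over its single-symbol probe sets (224320 of 257430 probe sets, 18701 genes). Genes with a mean at or under log2 3.62, the lower 25%, were left out, which left 14018. That mean was taken over all 6 arrays. In 3 retained genes (LCN15, ERAS and PLA2G4E) the mean of the p53 off arrays lay under 3.62. They passed through their p53 on and recovery arrays.

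The group fit used limma 3.58.1 (R 4.3.3), unblocked over all 6 arrays, with Benjamini-Hochberg adjustment over all genes and a threshold of 0.05. The fits were tested on simulated data. The experiment number in the labels was taken as pairing, since the deviations of same-numbered arrays from their group means correlated at 0.496, 0.552 and 0.63 across genes. The unblocked fit leaves this pairing out, so level differences between the experiments count as spread in it. The SE of p53 on minus p53 off was 0.39 in AHNAK2, or 0.18 with the block, and 0.2 in SCGB1A1, or 0.17. Nothing says that the arrays came from separate cultures, so p-values measure only the spread between these samples. Experiments were compared with group as a covariate.

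The share kept is the recovery difference over the p53 on difference, per experiment, on the log2 scale. The retained genes and the gene lists were chosen with earlier results of these data known. Values per array are given by rule for the 20 largest rises, the 10 highest and 5 lowest shares kept and listed genes, and the 3 genes at either side of each threshold are named. Pseudogenes were to be counted only. KRT19P2, CITED4 and SLC37A2 fall outside the rule and were named after their values were seen. Promoters came from RefSeq (GRCh38.p14), matched by symbol. Alternatives covered the control array, probe-set summary, filter, scaling, pairing and left-out arrays. The linear scale was added after seeing the data.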

Additional observations from a re-analysis of the deposited data

How the results depend on the processing

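Of the settings tried, the rule gave 23 to 50 genes under another control array, probe-set summary, filter or scaling and on the linear scale, 18 genes with a rise of at least 1 log2 unit, and 121 genes from group means with no replicate block. It gave 352 genes from experiment 2 alone and 162 from experiment 1 alone. All 34 are in each by construction, since the rule had to be met within each experiment. The median share kept was 69% with the mean of the probe sets and 65.4% on the linear scale, between 72.6% and 78.5% within an experiment, and between 74% and 77% elsewhere. For p53 on minus p53 off, limma called 13 of the 34 genes, 34 with the replicate block, 5 with no filter on dim genes, and 0 to 3 with 1 array left out (0 without either p53 off array, 3 without any other). For p53 on then off minus p53 off it called 1, 9 with the block, and 0 with any 1 array left out. For recovery against p53 on it called 0 in every setting. Between the experiments it called 4 to 7 under the alternatives, against 5. Of 68 mean differences of the 34 genes from p53 off, 38 moved by more than the spread between replicates with the mean of the probe sets and 4 with quantile normalization, with no change of sign in either. The causes of these changes were not tested.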
